A study of Mus musculus with 6 samples.

Results

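The AP-1 and ATF3 family described here is a list of 10 genes that encode leucine zipper transcription factors: the Fos members Fos, Fosb, Fosl1 and Fosl2, the Jun members Jun, Junb and Jund, and their relatives Atf3, Jdp2 and Maff. They were found by gene symbol in a deposited table of 15726 mouse genes. Of the 10, 9 were in the table and Fosl1 was not analysed here. The level of 8 reached 1 FPKM (a read number divided by transcript length and library depth, so a level per length) on average in at least 1 group, and these 8 were tested among 10680 genes. Each of the 8 reached that level in both groups, so none was tested only because it was high in 1 of them. Fosb was below it.

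The cells were B16F10, an established mouse melanoma line. For 3 libraries the cells were given rPPAA18C6@Dox (50 μg/mL), for the other 3 PBS, and RNA was taken after 8 h in all 6. The labels give the preparation only as this code, and the title of the series calls the platform a potassium ionophore-based one that responds to reactive oxygen species and names ER stress. The preparation was compared with PBS as a whole, so effects of its parts cannot be told apart. Whether a group's 3 libraries come from 3 cultures is not in the labels, and p-values cover only the spread among libraries, which could be technical alone. The columns of the rPPAA18C6@Dox libraries carry only a letter and a number and were assigned by elimination, and the sign of every difference rests on that reading.

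AP-1 is a pair of such proteins: Fos proteins need a Jun protein or another relative to bind DNA, whereas Jun proteins also pair with themselves. Growth factors and stress raise Fos and Jun mRNA quickly and briefly, through MAP kinases that act on factors already bound at their promoters. ATF3 is a stress-induced relative that pairs with Jun proteins or itself, and ATF4, the factor translated when the kinase PERK senses ER stress, is a known activator of its gene. In melanoma, the balance of AP-1 members is known to vary between pigmented and dedifferentiated states.

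Promoter windows of the members are shown because sites for these same factors are part of how the genes are known to be controlled. RefSeq promoter windows (build GRCm38.p6) were matched by symbol for all 9 genes, 13 windows in all, and the 250 bases before each annotated start were searched on both strands. The searched letters were the AP-1 site TGANTCA, the core TGACGT of the cAMP response element, the full element TGACGTCA (which holds that core), the variant TGACATCA, the core TGATGNAA of a composite C/EBP and ATF element, and the CArG box bound by SRF. The windows below, each read 5′ to 3′ on the strand of its gene, have the matches in capitals. They lie at chr1:191183334-191183583 on the minus strand for Atf3, at chr12:85473640-85473889 on the plus strand for Fos, at chr4:95052223-95052472 on the minus strand for Jun, and at chr12:85599166-85599415 on the plus strand for the second of the Jdp2 starts.
Atf3: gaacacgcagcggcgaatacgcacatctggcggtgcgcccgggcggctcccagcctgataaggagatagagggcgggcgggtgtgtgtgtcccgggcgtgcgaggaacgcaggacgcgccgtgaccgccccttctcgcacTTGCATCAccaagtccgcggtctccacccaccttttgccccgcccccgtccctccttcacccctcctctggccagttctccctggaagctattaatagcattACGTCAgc
Fos: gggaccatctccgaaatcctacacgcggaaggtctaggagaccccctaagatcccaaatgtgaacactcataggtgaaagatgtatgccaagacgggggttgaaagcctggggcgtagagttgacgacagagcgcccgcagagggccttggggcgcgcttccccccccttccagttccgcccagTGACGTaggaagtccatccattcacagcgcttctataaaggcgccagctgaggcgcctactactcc
Jun: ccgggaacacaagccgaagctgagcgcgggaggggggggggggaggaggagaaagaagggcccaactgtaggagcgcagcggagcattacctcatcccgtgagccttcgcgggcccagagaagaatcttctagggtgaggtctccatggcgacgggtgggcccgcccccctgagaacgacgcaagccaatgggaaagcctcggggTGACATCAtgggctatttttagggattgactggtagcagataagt
Jdp2: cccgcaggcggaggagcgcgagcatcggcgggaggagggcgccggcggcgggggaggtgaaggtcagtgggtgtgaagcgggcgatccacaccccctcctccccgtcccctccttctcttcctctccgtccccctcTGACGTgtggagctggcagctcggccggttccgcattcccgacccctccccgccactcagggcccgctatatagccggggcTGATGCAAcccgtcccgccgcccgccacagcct

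The Atf3 window held the composite core, in reverse, 110 bases before the start and the TGACGT core, in reverse, 8 bases before it. The Fos window held the TGACGT core 66 bases before the start, and the Jun window the variant TGACATCA 45 bases before it. The shown Jdp2 window held the TGACGT core 114 bases and the composite core 33 bases before the start. Of the 3 Maff windows, the window at chr15:79347270-79347519 held the full element TGACGTCA 29 bases before the start, and that at chr15:79348152-79348401 held TGACATCA 45 bases before it. No window of Fosl2, Fosb, Jund or Junb held any of these letters, and none of the 13 held TGANTCA or a CArG box. Bases farther upstream and past the start were not searched. A window without a match therefore does not show that the gene, Fos included, lacks the site. Of all 32851 windows of this length in the table, 6.47% held the TGACGT core, 3.45% the composite core, 2.93% TGACATCA, 1.55% the full element, 6.75% TGANTCA and 1.47% a CArG box. These matches describe letters and not bound sites, and the genes that rose include both genes with and genes without a match.

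The family was higher after rPPAA18C6@Dox in part: Fos, Atf3, Fosl2, Jun and Jund rose, and Junb, Jdp2 and Maff did not pass the test. So 5 of the 8 tested members rose and 0 fell (limma on log2(FPKM + 1), Benjamini-Hochberg over all 10680 genes, adjusted p under 0.05). Across all tested genes 4.66% rose and 5.26% fell. The members were chosen with earlier results of these data known, so their count beside these shares is a description. Limma's voom on the recovered reads called the same number of members, 5, where 8.55% of all genes rose, and limma with no filter on low values called 3, where 2.2% of all genes rose. In 6 of the 8 the lowest rPPAA18C6@Dox value exceeded the highest PBS value, which was so in 12.6% of all tested genes. The median log2 fold change was 0.26 over the 8 members and -0.01 over all tested genes. The rises between group means ranged from 14.8% for Jund to 93.9% for Fos.

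**Figure D1:**
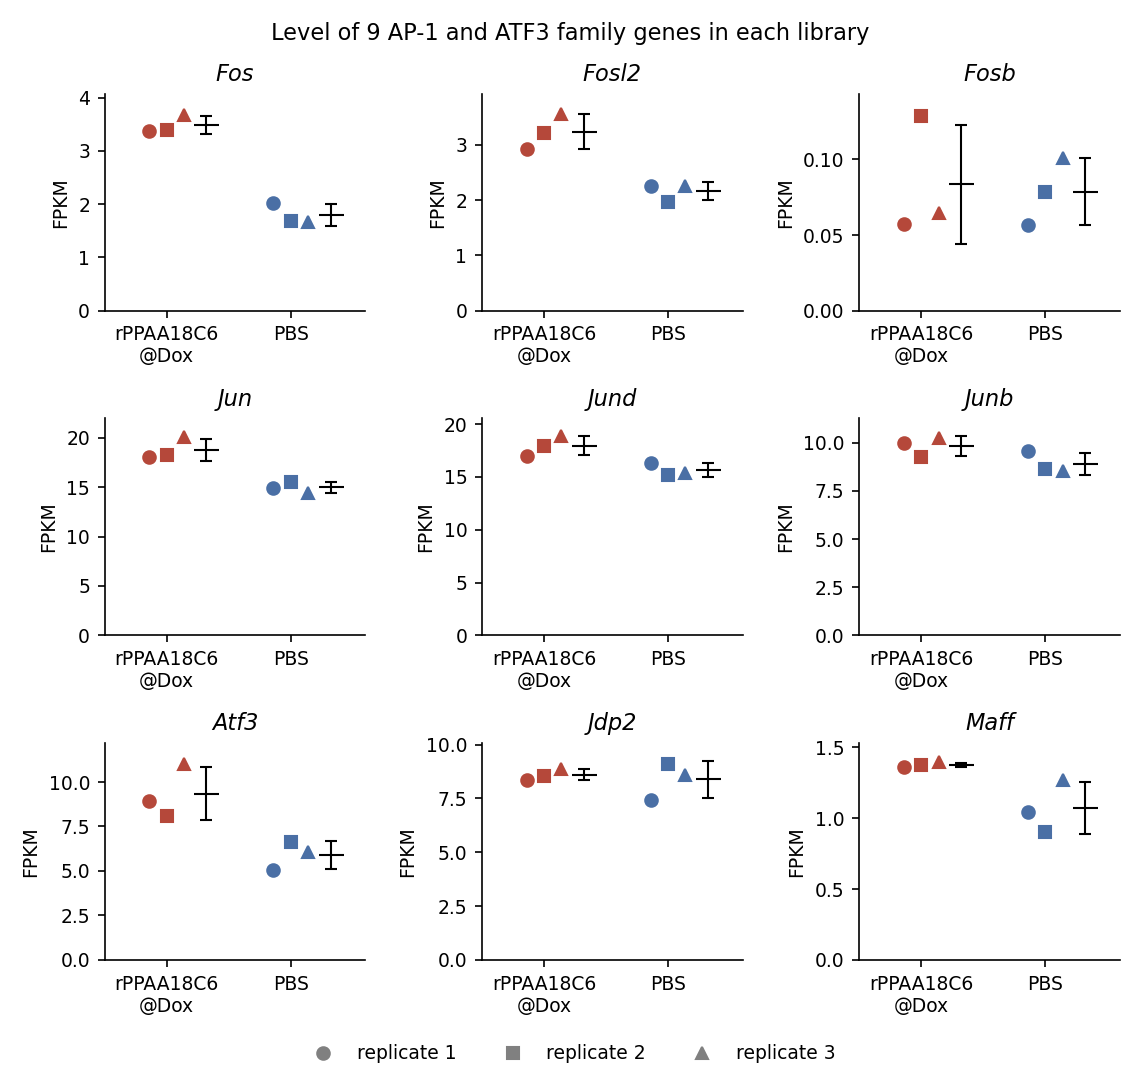
Level of 9 genes in FPKM (vertical axes, each from 0) in the 3 rPPAA18C6@Dox libraries (left, red) and the 3 PBS libraries (right, blue). Symbols mark the replicate number, and the bars are the mean ± SD. The groups are apart for Fos, Fosl2, Jun, Jund, Atf3 and Maff, and they overlap for Fosb, Junb and Jdp2.

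Fos encodes c-Fos, the immediate early partner of Jun that gave the Fos members their name. It had 3.38, 3.39 and 3.67 FPKM in the rPPAA18C6@Dox libraries, against 2.03, 1.69 and 1.67 FPKM in the PBS libraries. The rPPAA18C6@Dox libraries were close together and all well above the highest PBS library. Fos averaged 3.48 ± 0.165 FPKM after rPPAA18C6@Dox and 1.79 ± 0.204 FPKM after PBS (SD, n = 3 each), a ratio of 1.94. Its log2 fold change was 0.68 (SE 0.0631, limma adjusted p = 0.000133). By size of rise on this scale it ranked 12 among all 10680 tested genes. The scale shrinks the change of a low gene. For Fos the log2 fold change was 0.98 with voom on recovered reads, and 0.92 with 0.1 instead of 1 added to each FPKM. The level of Fos was low, as 86.1% of tested genes had a higher mean. The level rested on 263 to 286 recovered reads per rPPAA18C6@Dox library and 129 to 160 per PBS library.

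Fosl2 encodes Fra-2, a Fos protein that lacks the strong activation domain of c-Fos. It had 2.93, 3.22 and 3.55 FPKM in the rPPAA18C6@Dox libraries, against 2.25, 1.97 and 2.26 FPKM in the PBS libraries, with no overlap. The averages were 3.23 ± 0.312 FPKM after rPPAA18C6@Dox and 2.16 ± 0.166 FPKM after PBS (SD, n = 3 each). The log2 fold change was 0.42 (SE 0.0666, limma adjusted p = 0.00427). Fosb, whose full-length protein is a strong activator and whose short splice form persists in neurons, was barely detected, with 8, 18 and 9 reads in the rPPAA18C6@Dox libraries and 8, 11 and 14 in the PBS libraries. Its levels of 0.0574, 0.129 and 0.0645 FPKM after rPPAA18C6@Dox and 0.0567, 0.0785 and 0.101 FPKM after PBS overlapped. A difference in Fosb was not detectable at this depth, also when all 15726 genes were tested (log2 fold change 0.01, SE 0.0316, limma adjusted p = 0.944). At so low a level, adding 1 to each FPKM holds the log2 fold change and its SE small. The fit therefore cannot show that Fosb was unchanged.

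By mean level the Jun genes were the most abundant members in both groups. The range of Junb, the lowest of them, overlapped that of Atf3 after rPPAA18C6@Dox and that of Jdp2 after PBS. Jun, which encodes c-Jun, the main target of the stress kinases JNK, had 18.1, 18.3 and 20.1 FPKM in the rPPAA18C6@Dox libraries, against 14.9, 15.6 and 14.4 FPKM in the PBS libraries. The lowest rPPAA18C6@Dox library was 2.50 FPKM above the highest PBS library. Jun averaged 18.8 ± 1.11 FPKM after rPPAA18C6@Dox and 14.97 ± 0.561 FPKM after PBS (SD, n = 3 each), with a log2 fold change of 0.31 (SE 0.0446, limma adjusted p = 0.00261).

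Jund encodes the Jun protein that is expressed most steadily and often restrains growth. It had 17.01, 17.96 and 18.8 FPKM in the rPPAA18C6@Dox libraries, against 16.4, 15.2 and 15.4 FPKM in the PBS libraries, which do not overlap but come within 0.659 FPKM of each other. The log2 fold change was 0.19 (SE 0.0429, limma adjusted p = 0.0245). The call lay near the threshold: leaving out rPPAA18C6@Dox replicate 2 or 3 ended it (adjusted p = 0.0644 and 0.0781), as did leaving out PBS replicate 2 or 3 (0.0831 and 0.0766), while the log2 fold change stayed between 0.15 and 0.22 in all 6 fits without 1 library. It was also lost with no filter on low values (0.0729) and without the mean-variance trend (0.0516), with the fold change as before.

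Junb, which encodes an antagonist of c-Jun at many promoters, had 9.97, 9.25 and 10.3 FPKM in the rPPAA18C6@Dox libraries, against 9.55, 8.64 and 8.53 FPKM in the PBS libraries. PBS replicate 1 lay above rPPAA18C6@Dox replicate 2, so the groups overlapped. The log2 fold change was 0.13 with a 95% confidence interval of 0.02 to 0.24 (limma adjusted p = 0.142). Exons of Junb overlap those of Prdx2 on the other strand (GENCODE vM21), and since the use of strand in counting is not given, reads of the pair may be mixed. Prdx2, a peroxidase, averaged 148 ± 3.21 FPKM after rPPAA18C6@Dox and 144 ± 3.51 FPKM after PBS. Jun likewise overlaps its antisense RNA Junos, which was at 0.0824 ± 0.00838 and 0.0825 ± 0.0125 FPKM in the same order. Jund overlaps Gm11175 and Jdp2 overlaps Gm47863 on the other strand, and neither was analysed here, so the same doubt applies to both members.

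**Figure D2:**
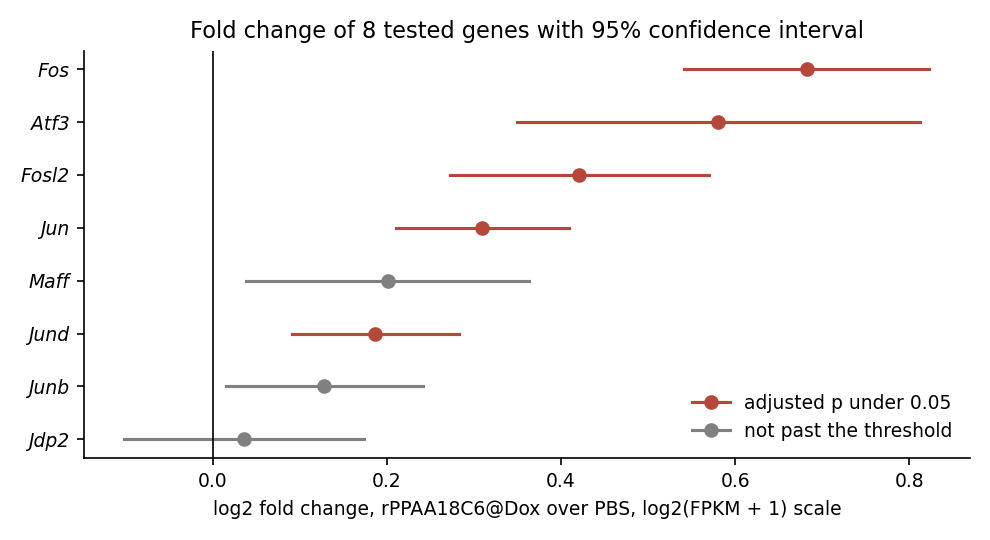
Log2 fold change of the 8 tested genes (rPPAA18C6@Dox over PBS, horizontal axis, log2(FPKM + 1) scale) with its 95% confidence interval from limma. Red marks the 5 genes with an adjusted p under 0.05, from Jund at 0.19 to Fos at 0.68, and the interval of Jdp2 spans 0.

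Atf3 had 8.95, 8.11 and 11.01 FPKM in the rPPAA18C6@Dox libraries, against 5.03, 6.61 and 6.08 FPKM in the PBS libraries. The groups did not overlap, and rPPAA18C6@Dox replicate 3 stood highest. The averages of 9.35 ± 1.49 FPKM after rPPAA18C6@Dox and 5.91 ± 0.804 FPKM after PBS (SD, n = 3 each) gave a ratio of 1.58. The log2 fold change of 0.58 (SE 0.104, limma adjusted p = 0.00757) ranked 25 by size of rise on the log2(FPKM + 1) scale. Without rPPAA18C6@Dox replicate 3 it was 0.47 (adjusted p = 0.0212). The call was lost when every gene was tested with no filter (0.0524).

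Jdp2 encodes a repressor related to ATF3 that also binds the cAMP response element and AP-1 sites. It had 8.37, 8.54 and 8.87 FPKM in the rPPAA18C6@Dox libraries, against 7.42, 9.12 and 8.60 FPKM in the PBS libraries, and both the lowest and the highest library were PBS ones. The log2 fold change was 0.04 with a 95% confidence interval of -0.10 to 0.17 (limma adjusted p = 0.755), and its sign turned without PBS replicate 1 (-0.04). The ratio of Atf3 to Jdp2, both in FPKM, was 1.07, 0.949 and 1.24 in the rPPAA18C6@Dox libraries, against 0.678, 0.725 and 0.707 in the PBS libraries.

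Maff encodes a small Maf protein, which has no activation domain and pairs with Fos and with NRF2. It had 1.36, 1.37 and 1.39 FPKM in the rPPAA18C6@Dox libraries, against 1.04, 0.903 and 1.27 FPKM in the PBS libraries. The rPPAA18C6@Dox libraries all lay above the PBS libraries, but by only 0.0914 FPKM at the closest, and on 165 to 169 reads in rPPAA18C6@Dox libraries and 110 to 153 in PBS libraries. The log2 fold change was 0.20 (95% confidence interval 0.04 to 0.36, limma adjusted p = 0.112) and depended on the scale, being 0.39 with voom on recovered reads (adjusted p = 0.0674).

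In levels per length, the order after rPPAA18C6@Dox was Jun (18.8 FPKM), Jund (17.9), Junb (9.83), Atf3 (9.35), Jdp2 (8.59), Fos (3.48), Fosl2 (3.23), Maff (1.37) and Fosb (0.0835). The ranges of Jun and Jund, of Junb and Atf3, of Atf3 and Jdp2, and of Fos and Fosl2 overlapped between libraries. Within each library, though, Jun was above Jund and Fos above Fosl2 in all 3 rPPAA18C6@Dox libraries (Fos over Fosl2 was 1.15, 1.05 and 1.03), whereas Junb and Atf3, and Atf3 and Jdp2, changed order from library to library. After PBS, Jund (15.6 FPKM) came before Jun (14.97), Jdp2 (8.38) before Atf3 (5.91) and Fosl2 (2.16) before Fos (1.79). Of these, Jdp2 and Atf3 did not overlap after PBS, and the ranges of the other reversed pairs overlapped in both groups. Fos was below Fosl2 in each PBS library (0.901, 0.857 and 0.738), and the order of Jun and Jund varied among the PBS libraries.

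The Fos genes summed to 6.37, 6.74 and 7.29 FPKM in the rPPAA18C6@Dox libraries, against 4.34, 3.73 and 4.03 FPKM in the PBS libraries. The Jun genes summed to 45.05, 45.5 and 49.2 FPKM in the rPPAA18C6@Dox libraries, against 40.8, 39.4 and 38.4 FPKM in the PBS libraries. The Jun sum exceeded the Fos sum in every library, and the ratio of the Jun sum to the Fos sum averaged 6.86 ± 0.190 after rPPAA18C6@Dox and 9.82 ± 0.625 after PBS, with no overlap. Fosl1, not analysed here, is missing from the Fos sum. Within the Fos sum, Fos made up 51.2% ± 1.58 after rPPAA18C6@Dox and 44.5% ± 2.77 after PBS, and Fosl2 47.5% ± 1.38 and 53.6% ± 2.22 in the same order. Within the Jun sum, Jun made up 40.4% ± 0.402 after rPPAA18C6@Dox and 37.9% ± 1.52 after PBS, also without overlap, whereas the shares of Junb and Jund overlapped between groups. These sums and shares follow from the levels above and were not tested.

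**Figure D3:**
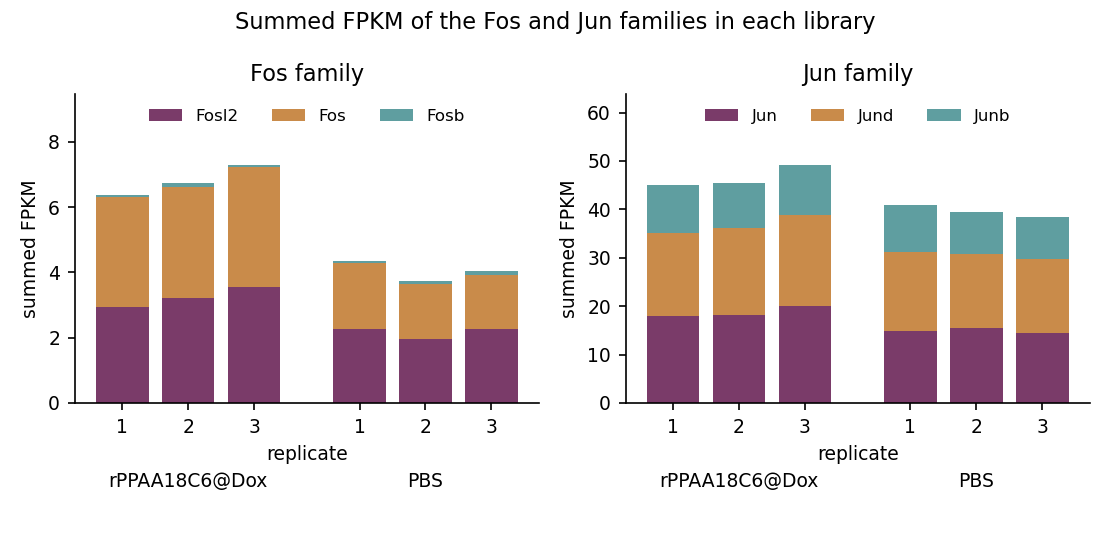
Summed FPKM (vertical axes, from 0) of the Fos genes (left) and the Jun genes (right) in each library, rPPAA18C6@Dox before PBS, stacked by gene. The Fos sum is 6.37 to 7.29 FPKM after rPPAA18C6@Dox and 3.73 to 4.34 after PBS, and Fos is above Fosl2 in the 3 rPPAA18C6@Dox libraries and below it in the 3 PBS libraries.

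The members shared a pattern among the rPPAA18C6@Dox libraries. Replicate 3 was the highest of the 3 for 8 of the 8 tested members, and for 35.1% of all tested genes. Its recovered depth of 36629230 reads lay between those of replicate 1 (36594469) and replicate 2 (36740725), and its FPKM summed to 392470, against 385203 and 388114 in the same order. Without this library 4 of the members were called, all but Jund of the 5 above. The part of this library in the sizes of the rises was not tested beyond leaving it out.

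**Figure D4:**
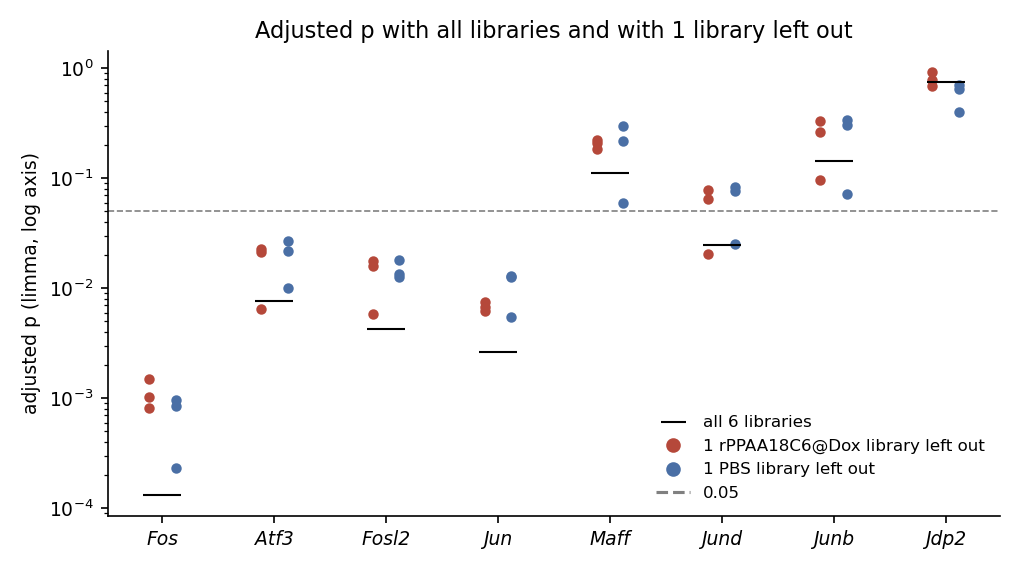
Limma adjusted p (vertical axis, log scale) of the 8 tested genes with all 6 libraries (black bars) and with 1 library left out (red, an rPPAA18C6@Dox library; blue, a PBS library), with the threshold of 0.05 dashed. Fos, Atf3, Fosl2 and Jun stay below it in all 6 of these fits, and Jund in 2 of them.

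The authors' deposited table has a p-value per gene, with the test and any adjustment not stated. In the authors' deposited table the p was under 0.05 for 6 of the 9 members, and for 17.5% of all 15726 genes. It was 5.03e-12 for Fos, 4.97e-12 for Fosl2 and 2.30e-09 for Atf3 in the authors' deposited table. Maff, with a p of 0.0230 in the authors' deposited table, is the member that it puts below 0.05 and limma does not call. Limma's p for Maff was 0.0202 before adjustment and 0.112 after it, so unlike measures may be compared here.

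Of 15 tested genes for other leucine zipper factors (ATF, C/EBP, Maf, BACH and NRF proteins), 1 rose and 0 fell, which is 6.67% against 9.93% of all tested genes. This and the other lists of pathway genes were chosen with earlier results of these data known, so their shares are a description. The gene that rose was Ddit3, which encodes CHOP and was at 22.2 ± 2.20 FPKM after rPPAA18C6@Dox and 17.8 ± 1.49 FPKM after PBS (log2 fold change 0.30, SE 0.0723, limma adjusted p = 0.0283). It was also the only call among 20 tested genes of the ATF4 stress response around ATF3, 5.0% against 9.93% of all tested genes. Of these 20 genes, 10 had a positive log2 fold change, and the median was 0.0005. Leaving out rPPAA18C6@Dox replicate 1 or 3 ended the Ddit3 call (adjusted p = 0.0826 and 0.0987), as did leaving out PBS replicate 1 or 2 (0.0820 and 0.0556), and it was lost with no filter on low values (0.104) and without the trend (0.0656).

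Of 30 tested genes of the MAP kinase cascades, which signal to AP-1, 0 rose and 5 fell, where 5.26% of all tested genes fell. Rps6ka3, which encodes the ERK-activated kinase RSK2, was at 19.9 ± 0.0871 FPKM after rPPAA18C6@Dox and 22.2 ± 0.180 FPKM after PBS (log2 fold change -0.15, SE 0.0272, limma adjusted p = 0.00853). The falls of Map2k2 (MEK2, -0.11), Mapk7 (ERK5, -0.18), Mapk14 (p38 alpha, -0.09) and Mapk12 (p38 gamma, -0.20) had limma adjusted p between 0.0214 and 0.0451. Leaving out 1 library left 1 to 3 calls in this list, and Rps6ka3 was called in all 6 of those fits. Values of mRNA do not show the activity of a kinase. Of 12 tested serum response and cAMP response factors and their coactivators 1 fell and 0 rose, 8.33% against 9.93% of all tested genes. The 1 that fell was Elk3, a ternary complex factor that represses Fos in mouse cells. Elk3 was at 8.66 ± 0.167 FPKM after rPPAA18C6@Dox and 10.4 ± 0.607 FPKM after PBS (-0.24, SE 0.0438, limma adjusted p = 0.00875).

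Genes listed for the restraint or turnover of AP-1 went both ways, with 2 higher and 2 lower of 14 tested, 28.6% against 9.93% of all tested genes. As the list was chosen with earlier results known, this share is a description. Both that rose encode MAP kinase phosphatases. Dusp1 was at 3.11 ± 0.203 FPKM after rPPAA18C6@Dox and 2.27 ± 0.155 FPKM after PBS (log2 fold change 0.33, SE 0.0585, limma adjusted p = 0.00711). Dusp16, which acts on JNK, was at 10.3 ± 0.538 FPKM after rPPAA18C6@Dox and 8.35 ± 0.508 FPKM after PBS (0.28, SE 0.0506, limma adjusted p = 0.00827). Irf2bp2, a corepressor, fell (-0.27, SE 0.0448, limma adjusted p = 0.00557). Zfp36l2, an mRNA decay factor, fell too (-0.15, limma adjusted p = 0.0362), but its call was lost in each of the 6 fits without 1 library (up to 0.114).

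Among 19 tested genes known as AP-1 targets in other cells, 3 rose and 2 fell, 26.3% against 9.93% of all tested genes, and the median log2 fold change was -0.04. The target list, too, was chosen with earlier results known, so its share is a description. Spp1, which encodes the secreted protein osteopontin, rose most: it was at 23.4 ± 2.05 FPKM after rPPAA18C6@Dox and 15.3 ± 0.369 FPKM after PBS (log2 fold change 0.58, SE 0.0544, limma adjusted p = 0.000143). The hyaluronan receptor Cd44 was at 104.7 ± 0.933 FPKM after rPPAA18C6@Dox and 92.6 ± 1.90 FPKM after PBS (0.18, SE 0.0243, limma adjusted p = 0.00209). The membrane linker Ezr rose by 0.11 (limma adjusted p = 0.0209). Mmp14, a membrane-bound collagenase, was at 81.004 ± 0.379 FPKM after rPPAA18C6@Dox and 93.04 ± 1.57 FPKM after PBS (-0.20, SE 0.0234, limma adjusted p = 0.000843). The lipid kinase Sphk1 fell as well (-0.23, limma adjusted p = 0.0204). The calls of Ezr and Sphk1 were lost in 3 and 5 of the 6 fits without 1 library, with adjusted p up to 0.0752 and 0.0649. Of the 34 listed targets 11 had no row and were not analysed here, and 4 were below the filter.

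The genes whose level followed Fos most closely over the 6 libraries were Manf (Pearson r = 0.996), Zfand5 (0.996), Phlda3 (0.996), Sgk1 (0.996) and Zyx (0.995), among the 7655 genes searched. All 5 rose, with log2 fold changes between 0.18 and 0.29. This follows from how they were chosen, since Fos differed between the groups and r was taken over both groups together. Of the 7655 genes searched, 425 passed an r of 0.9. For Atf3 the highest r was lower, at 0.990 for C9orf72, 0.987 for Rpl35, 0.986 for Plekha5, 0.983 for Sec62 and 0.980 for Sdha, among 7654 genes. Of these 5 only Rpl35 passed limma's threshold (0.09, adjusted p = 0.0457), and not in any of the 6 fits without 1 library. Over only 6 libraries these likenesses are a description.

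The whole series bears on these values as follows. The libraries held 36380462 to 37067116 recovered reads, of which 5.96% to 6.28% fell to the 10 genes with most reads. All 7 melanocytic markers were detected, and 5 of them rose and 0 fell (Tyr, Tyrp1, Dct, Pmel and Mitf), where 4.66% of all tested genes rose. The markers summed to 7198 to 7228 FPKM after rPPAA18C6@Dox and 6145 to 6233 FPKM after PBS. Of 7 immune, 6 fibroblast and 6 endothelial and epithelial markers, 2, 4 and 2 had rows, with sums of at most 2.40, 1.88 and 1.78 FPKM after rPPAA18C6@Dox and 2.26, 2.20 and 1.82 FPKM after PBS. Of these, 1 marker of each list was high enough to test, and the immune one, Cd68, a lysosomal protein of macrophages that other cells also make at a low level, was called: it was at 1.72, 1.67 and 1.61 FPKM in the rPPAA18C6@Dox libraries, against 1.24, 1.34 and 1.22 FPKM in the PBS libraries (log2 fold change 0.23, SE 0.0564, limma adjusted p = 0.0311), on 74 to 79 and 56 to 62 reads per library in the same order. Voom did not call Cd68. The part of these markers in the results above was not tested. In bulk RNA, a change in every cell and a larger change in some of them cannot be told apart.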

How the data were processed

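RNA of 6 libraries was measured by sequencing after poly(A) selection with a stranded kit, per the labels' protocols. The deposited values were read as FPKM, although the header does not name the unit. The values of each gene stand in whole-number ratios after a depth factor per library. They also carry a factor per gene: in rPPAA18C6@Dox replicate 1, Fosl2 had 766 recovered reads and a value of 2.93, and Fos 263 and 3.38. That this factor is transcript length was not shown. Comparisons of level between genes, sums and shares rest on that reading. The submitters' processing notes name mm9 as the build, and the sources used here do not give the aligner, counter, use of strand or filters. The authors deposited 1 p-value per gene with no stated test. For 15726 of 15726 genes the smallest whole reads that match all 6 values within 0.01 reads were recovered. Counting noise is relative to these reads.

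The main test was limma 3.58.1 (R 4.3.3) on log2(FPKM + 1), unpaired and two-sided, with its mean-variance trend, over genes whose mean reached 1 FPKM in a group. Benjamini-Hochberg adjusted p under 0.05 counted as called. This scale understates the change of low genes. The test was also run on simulated data, and the outcome of that run is not given here. Alternatives were a pseudocount of 0.1, no filter, a mean of at least 5 FPKM, quantile normalization, no trend, voom on the recovered reads with trimmed-mean scaling, a replicate block, and 1 library left out. Libraries of a group differed by more than sampling noise (mean chi-square per gene 2.39 to 4.33, where noise alone gives about 1) and were counted separately.

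The members and the 6 lists of pathway genes were chosen with earlier results of these data known. Named genes are the members, up to 5 called genes per list by smallest p, and the 5 genes most like Fos and Atf3. Prdx2 and Junos were named for their overlap. Promoter windows are from RefSeq, build GRCm38.p6, and were used for letters only.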

Additional observations from a re-analysis of the deposited data

How the results depend on the processing

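The count of called members was 5 with a pseudocount of 0.1, quantile normalization, voom and the replicate block, 4 without the trend, and 4 to 5 with 1 library left out. It was 3 with no filter. It was also 3 where a mean of 5 FPKM was required, since Fos and Fosl2 are too low to be tested. Fos, Fosl2 and Jun kept their call under every alternative that tested them. Atf3 lost its call with no filter only, and Jdp2, called under none of the alternatives, turned sign without PBS replicate 1 (-0.0391) and ranged up to 0.0929 with another library left out. Voom and quantile normalization changed the log2 fold change per gene by a median of 0.02 and 0.01 from the main fit, over all genes. All tested members but Jdp2 were positive under every alternative.

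Over all genes, 498 were higher and 562 lower. Voom gave 913 higher and 647 lower, no filter 335 lower, and 1 library left out 314 to 371 higher and 285 to 381 lower. For the leucine zipper partners the count of 1 was 0 with no filter, 2 from a mean of 5 FPKM up, 3 with voom and 0 to 1 with 1 library left out. For the ATF4 list the count of 1 was 0 with no filter, 0 without the trend and 0 to 1 with 1 library left out. For the MAP kinases the count of 5 was 3 with no filter, 2 without the trend, 3 with the replicate block and 1 to 3 with 1 library left out. For the AP-1 targets the count of 5 was 7 with quantile normalization, 7 with voom and 3 to 5 with 1 library left out. No pairing by replicate number was seen in the values: the deviations of same-numbered libraries correlated at -0.0024, 0.0549 and -0.0210 across genes. Not every library correlated best with its own number. Such correlations cannot show that the libraries were unpaired by design. With the replicate block 421 genes were higher and 404 lower. Fosb, with 8 to 18 reads per library, is limited by depth and by the log2(FPKM + 1) scale.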
